A study of Mus musculus with 6 samples.

Results

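The genes described here encode 40 heat shock proteins and chaperones, of 54532 genes in the deposited table. They were taken by gene name, and each of the 40 names matched 1 row. They fall into 6 classes by role: 10 heat-inducible targets of the transcription factor HSF1, 8 constitutive chaperones of the HSP70, HSP40 and HSP90 families with BAG1, 8 co-chaperones, the 8 subunits of the cytosolic chaperonin TRiC, 4 mitochondrial chaperones, and the heat shock factors Hsf1 and Hsf2. The samples were 6 preparations of primary mouse macrophages of WT genotype, 3 treated with rmMETRNL for 6 h in vitro and 3 with vehicle, and all 6 were then exposed to the fungus Candida albicans for 6 h. METRNL (meteorin-like) is a secreted protein. Both groups carried the fungal challenge, so the comparison is between pretreatments and gives no response to the fungus. The source of the macrophages and the composition of the vehicle are not in the labels, and nothing there ties the 3 samples of a group to separate animals or cultures. P-values therefore reflect only the sample-to-sample spread, possibly a technical one. The table names its columns by short codes, read here as rmMETRNL for those with the letter r and as vehicle for the others, and every direction rests on that reading.

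Chaperones bind unfolded or newly made proteins and help them fold. HSP70 proteins grip short exposed stretches of a client under the control of HSP40 (J-domain) partners, HSP90 proteins finish the folding of kinases and receptors with the help of co-chaperones, and TRiC is a double ring of 8 different subunits that encloses actin and tubulin. In resting cells HSF1 is held inactive by chaperones. Misfolded protein frees it to bind heat shock elements, inverted repeats of the unit GAA, and to switch on the inducible genes, while the constitutive relatives are made at all times. In macrophages the inducible HSP70 is known to be made under heat, oxidant and inflammatory stress.

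The libraries held between 13235001 and 18145733 reads, recovered from the values as whole multiples of 1 read per library. Members took 0.698% to 0.744% of the reads of a library. The libraries bore macrophage markers, with Lyz2, the lysozyme gene, the most abundant of 10. Their summed level was 9429 to 9713 FPKM in rmMETRNL libraries and 9659 to 10204 FPKM in vehicle libraries. Some were low, with mean FPKM in rmMETRNL and vehicle libraries of 1.35 and 1.21 (Fcgr1), 1.41 and 0.708 (Aif1), and 2.18 and 2.74 (Mertk). Without overlap of the groups, Adgre1, Csf1r and Aif1 were higher with rmMETRNL and Cd68, Cd14 and Mertk were lower. The others overlapped. The extraction text in the labels speaks of retinas, against the cell type given elsewhere in them, so retina markers were read as well. The 6 with reads in any library summed to 0.623 to 0.855 FPKM in rmMETRNL libraries and 0.446 to 0.591 FPKM in vehicle libraries, ranges that do not overlap. The highest of them, Pde6b, had 19 to 53 reads per library, and Crx was listed at 0 in all 6 libraries. The part of this list in the results was not tested. Library 3 of the rmMETRNL group stood apart. In it the deviation of a gene from its mean correlated with gene length across genes (Spearman correlation 0.313, described over 9867 genes), against -0.168 to -0.0212 in the other 5 libraries.

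Matches to the heat shock element lie in the promoters of many of these genes, and some of those promoters are printed first. RefSeq start sites (GRCm38.p6) gave a window of 250 bases before to 50 bases after the start for 33 of the 40 members, 43 windows in all. No window was at hand for Hsp90aa1, Hspa8, Hsp90ab1, St13, Cct4, Hspa9 and Hsf1, so these were not searched. Windows were searched on both strands for 2 inverted units (GAANNTTC or TTCNNGAA) and for 3, in which the first form is followed by NNGAA or the second by NNTTC. Each match to 3 units also holds a match to 2. The following windows belong to the near-identical pair Hspa1a and Hspa1b, to Hspe1, whose window largely overlaps a window of its divergent neighbour Hspd1, and to Dnajb6 and Chordc1, which hold 3 units. Capitals mark the matches.
Hspa1a, chr17:34972107-34972406, minus strand: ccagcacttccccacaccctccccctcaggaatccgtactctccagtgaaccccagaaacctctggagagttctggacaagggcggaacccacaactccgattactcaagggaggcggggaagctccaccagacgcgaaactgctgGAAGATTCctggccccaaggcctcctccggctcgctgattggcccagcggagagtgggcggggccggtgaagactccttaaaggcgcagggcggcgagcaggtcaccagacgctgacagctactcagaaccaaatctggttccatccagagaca
Hspa1b, chr17:34959189-34959488, minus strand: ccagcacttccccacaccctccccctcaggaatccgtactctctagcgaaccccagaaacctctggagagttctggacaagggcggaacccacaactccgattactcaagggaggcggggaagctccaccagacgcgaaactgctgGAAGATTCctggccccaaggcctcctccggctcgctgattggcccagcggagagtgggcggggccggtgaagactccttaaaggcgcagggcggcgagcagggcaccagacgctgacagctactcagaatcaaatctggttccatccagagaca
Hspe1, chr1:55087898-55088197, plus strand: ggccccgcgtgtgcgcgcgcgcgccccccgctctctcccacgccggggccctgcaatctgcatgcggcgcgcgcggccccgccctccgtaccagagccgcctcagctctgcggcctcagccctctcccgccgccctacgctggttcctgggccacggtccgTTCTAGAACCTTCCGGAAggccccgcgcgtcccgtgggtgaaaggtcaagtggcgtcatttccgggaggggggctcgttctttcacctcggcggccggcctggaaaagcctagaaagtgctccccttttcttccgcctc
Dnajb6, chr5:29735648-29735947, plus strand: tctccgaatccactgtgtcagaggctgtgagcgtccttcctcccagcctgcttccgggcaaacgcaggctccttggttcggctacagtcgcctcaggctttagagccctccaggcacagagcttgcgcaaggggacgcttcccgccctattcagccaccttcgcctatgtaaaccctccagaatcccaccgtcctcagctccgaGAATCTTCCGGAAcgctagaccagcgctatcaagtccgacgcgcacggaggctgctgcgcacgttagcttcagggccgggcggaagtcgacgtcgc
Chordc1, chr9:18292017-18292316, plus strand: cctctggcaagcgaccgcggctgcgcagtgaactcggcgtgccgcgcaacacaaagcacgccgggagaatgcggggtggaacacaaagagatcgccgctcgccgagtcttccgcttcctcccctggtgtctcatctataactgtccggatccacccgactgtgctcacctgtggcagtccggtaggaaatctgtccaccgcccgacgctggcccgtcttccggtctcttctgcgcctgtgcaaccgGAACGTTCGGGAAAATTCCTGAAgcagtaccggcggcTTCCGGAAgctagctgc

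A match to 3 units was found for 5 of the 33 members (15.2%), namely Chordc1, Dnajb6, Hspd1, Hspe1 and Hsph1, and for 179 of 27025 genes with a window (0.662%). A match to 2 units was found for 17 of the 33 members (51.5%) and for 4587 of the 27025 genes (16.97%). The 17 comprise 7 of 9 inducible genes, 4 of 7 co-chaperones, 3 of 7 TRiC subunits, 2 of 3 mitochondrial chaperones, 1 of 6 constitutive chaperones and 0 of 1 heat shock factors. The windows of Hspa1a and Hspa1b had the same base at 296 of 300 positions (98.7%), and both hold the 2-unit match at -104. The Hspe1 window and the Hspd1 window that overlaps it most face away from each other, with start sites 216 bases apart. They share 285 bases (95%) and the same 3-unit matches. Hspd1 has a further window from another start site, chr1:55088194-55088493, which holds no match to 2 or 3 units. A match is a description of these letters and not of binding. The search took exact units only, so an element with an altered unit was not counted.

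**Figure D1:**
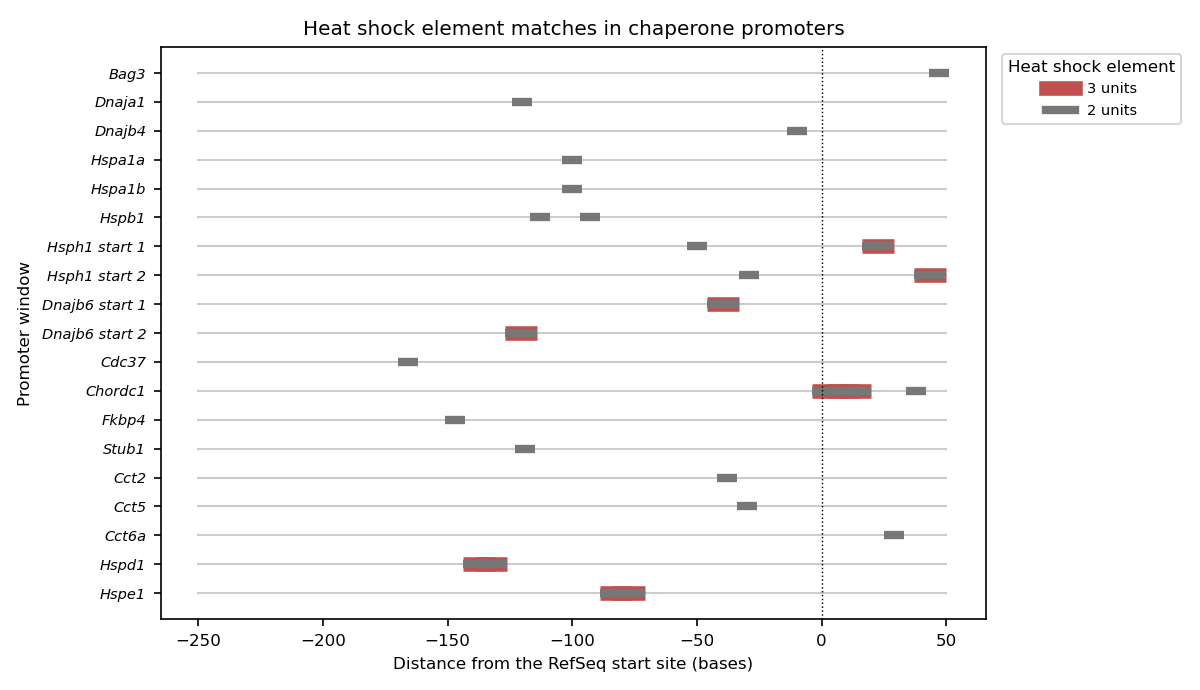
Matches to the heat shock element in the promoter windows of the members that hold one, with distance from the RefSeq start site in bases on the horizontal axis. Red bars stand for 3 units and grey bars for 2 units, and 17 of 33 members hold a match.

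The 40 genes spanned a wide range of levels in both groups. Hsp90ab1, the constitutive cytosolic HSP90, was the most abundant, at 406 ± 14.8 FPKM in rmMETRNL libraries and 446 ± 1.84 FPKM in vehicle libraries (FPKM, fragments scaled to gene length and library size, mean ± SD, n = 3 each, as for all values with ± below). It ranked 118 among the 9867 genes tested, those averaging 1 FPKM or more. Dnajb4, a J-domain partner of HSP70, was the lowest, at 1.64 ± 0.187 FPKM in rmMETRNL libraries and 1.65 ± 0.435 FPKM in vehicle libraries, at rank 8482. All 40 members passed the filter. Constitutive chaperones made up 42.3% of the summed FPKM of the 40 genes in rmMETRNL libraries and 44.7% in vehicle libraries, the largest share of the 6 classes in both.

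**Figure D2:**
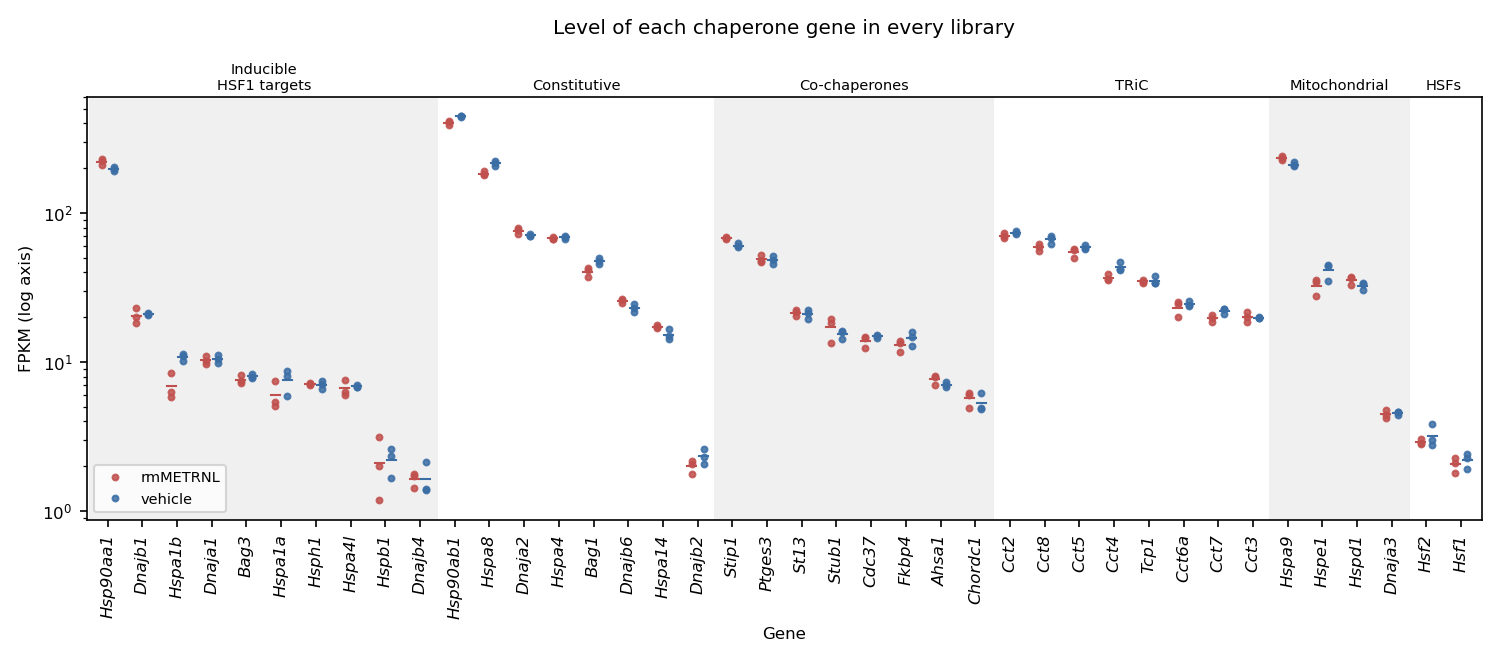
FPKM of each of the 40 genes (log axis) in the 3 rmMETRNL libraries (red) and the 3 vehicle libraries (blue), by class, with each point a library and each bar a group mean. Hsp90ab1, Hspa9, Hsp90aa1 and Hspa8 stand above the other genes, and the separation of the groups is small beside the range between genes.

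The comparison of rmMETRNL with vehicle gave small differences among the chaperones, in both directions. No member passed limma on log2(FPKM + 1) at an adjusted p of 0.05, where 0 of all 9867 genes tested passed (0%). At an unadjusted p under 0.05 limma counted 13 of 40 members (32.5%), against 14.7% of all genes tested. Of the 13, 5 were higher and 8 lower with rmMETRNL, where 7.54% and 7.13% of all genes were. The 13 became 8 without vehicle library 2, 9 without rmMETRNL library 2 and 9 without vehicle library 1. The count over all genes tested fell as well, from 1448 of 9867. In the same order it became 1078 of 9859, 1132 of 9893 and 1228 of 9901. Limma voom on the recovered reads, the other tool run, called 2 of the 40, Hspa1b and Hspa8, both lower with rmMETRNL, and 91 of all genes (0.922%), with 0.669% higher and 0.253% lower. The macrophage marker Cd14 also passed voom (-0.20 in log2 units, adjusted p = 0.0461 in voom and 0.189 in limma). In 6 members every rmMETRNL library exceeded every vehicle library, and in 8 the reverse held, against 10.9% and 10.6% of all genes tested, 21.5% in both directions. The members and classes were chosen with results of these data known, so these shares carry no test. The median log2 fold change of the 40 was -0.04, with 15 positive, and that of all genes tested was -0.01, with 48.4% positive. In bulk RNA, fewer cells of a type and less RNA per cell cannot be told apart.

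Beside these differences, the summed level of 8 neutrophil markers was 123 to 131 FPKM in rmMETRNL libraries and 112 to 119 FPKM in vehicle libraries. Of the 8, 3 reached the level tested. S100a9, a calcium-binding protein gene of myeloid cells, had 30.7, 37.1 and 36.6 FPKM in rmMETRNL libraries, against 23.5, 24.8 and 24.9 FPKM in vehicle libraries, without overlap (0.49 in log2 units, adjusted p = 0.151 in limma and 0.0525 in voom). S100a8, its partner and the most abundant of the list, averaged 86.1 ± 0.564 FPKM with rmMETRNL and 83.7 ± 4.59 FPKM with vehicle, and overlapped, as did Retnlg. Ly6g, Camp, Ngp and Mpo stayed under 1 FPKM with few reads, and Elane was listed at 0 in all 6 libraries. The sums of 9 immediate-early genes, which cells also switch on when handled, were 2174 to 2189 FPKM in rmMETRNL libraries and 1921 to 2104 FPKM in vehicle libraries. Most of the sum was Junb and Atf3, at means of 1025 and 641 FPKM with rmMETRNL and 911 and 616 FPKM with vehicle. Junb, Atf3, Jun, Ier2 and Dusp1 were higher with rmMETRNL without overlap, while Fos, Fosb, Egr1 and Zfp36 overlapped. The part of either list in the chaperone results was not tested. The summed markers of T cells, B cells, dendritic cells, fibroblasts and mesothelial cells overlapped between the groups.

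**Figure D3:**
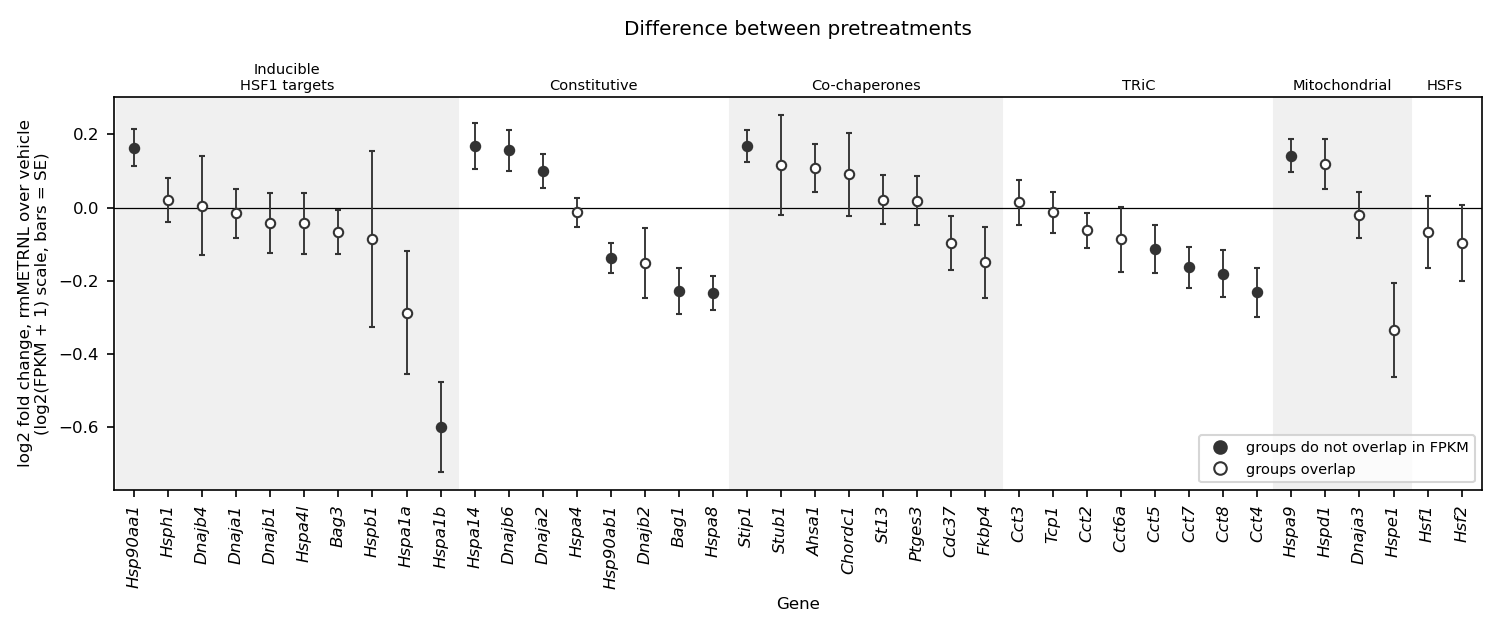
The log2 fold change of each gene, rmMETRNL over vehicle, on the log2(FPKM + 1) scale, with bars for the SE from limma, by class. Filled points mark the 14 genes whose groups did not overlap in FPKM. Hspa1b has the lowest value, -0.60, and the TRiC subunits lie between -0.23 and 0.01.

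Among the inducible HSF1 targets the HSP70 genes Hspa1a and Hspa1b were lower with rmMETRNL, the cytosolic HSP90 gene Hsp90aa1 was higher, and the other 7 had log2 fold changes from -0.09 to 0.02. The class median was -0.04, with 3 of 10 positive.

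Hspa1b (ENSMUSG00000090877, chromosome 17, 34956436 to 34959238, minus strand, GRCm38) encodes stress-inducible HSP70. Its level was 8.47, 5.87 and 6.33 FPKM in rmMETRNL libraries 1, 2 and 3, against 10.9, 10.2 and 11.4 FPKM in vehicle libraries 1, 2 and 3. All 3 rmMETRNL values lay below all 3 vehicle values, and the group means stood at a ratio of 0.636. The log2 fold change was -0.60 (limma SE 0.12 and adjusted p = 0.189), and -0.67 in voom (adjusted p = 0.0204). The central 95% of the 5382 genes averaging 5 FPKM or more ran from -0.31 to 0.27, and Hspa1b lay outside it. So did Hspe1 at -0.33, although its groups overlapped.

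Hspa1a (ENSMUSG00000091971, chromosome 17, 34969190 to 34972156, minus strand), which encodes a near-identical HSP70, had 7.48, 5.43 and 5.09 FPKM in rmMETRNL libraries and 8.01, 5.93 and 8.68 FPKM in vehicle libraries. The groups overlapped, since rmMETRNL library 1 exceeded vehicle library 2. Its log2 fold change was -0.29 (limma SE 0.17 and adjusted p = 0.476), and it was -0.43 without rmMETRNL library 1 or without vehicle library 2 and -0.19 without vehicle library 3. The 2 genes cannot be read apart with certainty, because 70.1% of the 31-base words of Hspa1a and 68.1% of those of Hspa1b occur in other genes, mostly in each other, and how reads that fit both were counted is not given. An antisense gene also overlaps 19.0% of the exon bases of Hspa1a, and a use of strand in counting is not stated. Summed, the pair had 15.9, 11.3 and 11.4 FPKM in rmMETRNL libraries, against 18.9, 16.1 and 20.1 FPKM in vehicle libraries. The sums did not overlap, and rmMETRNL library 1 came close to vehicle library 2.

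Hsp90aa1 (ENSMUSG00000021270, chromosome 12, 110690605 to 110702728), the inducible cytosolic HSP90, had 210.0, 231 and 224 FPKM in rmMETRNL libraries and 199, 191 and 203 FPKM in vehicle libraries. All 3 rmMETRNL values were above the vehicle values, and the log2 fold change was 0.16 (limma SE 0.05 and adjusted p = 0.262). Other genes, mainly predicted ones, contain 62.9% of its 31-base words.

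The other inducible genes lay close to their vehicle level. The HSP110 gene Hsph1, whose product exchanges the nucleotide of HSP70, had 7.17 ± 0.101 FPKM with rmMETRNL and 7.06 ± 0.452 FPKM with vehicle. Dnajb1, the main stress-inducible HSP40 gene, had 20.5 ± 2.39 FPKM with rmMETRNL and 21.1 ± 0.330 FPKM with vehicle. For Bag3, a nucleotide exchange factor that links HSP70 to selective autophagy, the levels were 7.62 ± 0.469 FPKM with rmMETRNL and 8.02 ± 0.242 FPKM with vehicle. Dnaja1, Dnajb4 and Hspa4l, whose products are HSP70 partners, had log2 fold changes of -0.02, 0.01 and -0.04. The small heat shock gene Hspb1 rests on 18 to 51 reads per library, at 2.11 ± 0.992 FPKM with rmMETRNL and 2.21 ± 0.491 FPKM with vehicle.

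The constitutive chaperones split in direction. Hspa8, Hsp90ab1 and Bag1 were lower with rmMETRNL and Hspa14, Dnajb6 and Dnaja2 were higher, each without overlap of the groups. These are 6 of 8 (75%), against 21.5% of all genes tested, a share that carries no test. The class median was -0.08, with 3 of 8 positive.

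Hspa8 (ENSMUSG00000015656, chromosome 9, 40800984 to 40810087), the constitutive cytosolic HSP70, had 191, 183 and 179.6 FPKM in rmMETRNL libraries, against 226, 209 and 217 FPKM in vehicle libraries. The highest rmMETRNL value was below the lowest vehicle value. The log2 fold change was -0.23 (limma SE 0.05 and adjusted p = 0.189), and -0.23 in voom (adjusted p = 0.0461). Other genes, among them predicted ones, contain 61.2% of its 31-base words, so part of its level is uncertain.

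Hsp90ab1 (ENSMUSG00000023944, chromosome 17, 45567775 to 45573271) had 417, 411 and 389 FPKM in rmMETRNL libraries and 447, 444 and 448 FPKM in vehicle libraries. The vehicle values lay within a few FPKM of each other, and all 3 rmMETRNL values were below them (-0.14 in log2 units, with limma SE 0.04 and adjusted p = 0.256). Bag1 (ENSMUSG00000028416, chromosome 4, 40936398 to 40948294), a nucleotide exchange factor of HSP70 that also binds BCL2, had 41.3, 42.7 and 37.5 FPKM in rmMETRNL libraries and 47.8, 49.6 and 45.3 FPKM in vehicle libraries. Its groups did not overlap either (-0.23 in log2 units, with limma SE 0.06 and adjusted p = 0.243).

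The other 3 stood higher, each by less than 0.2 on the log2 scale. Hspa14, an HSP70 relative that works at the ribosome, had 17.3 ± 0.387 FPKM with rmMETRNL and 15.3 ± 1.17 FPKM with vehicle. Another gene contains 16.5% of the 31-base words of Hspa14. Dnajb6, a J-domain protein that keeps aggregation-prone proteins apart, had 25.8 ± 0.701 FPKM with rmMETRNL and 23.1 ± 1.33 FPKM with vehicle, and 45.3% of its 31-base words are found elsewhere too. For Dnaja2, another HSP40 gene, the levels were 76.3 ± 3.33 FPKM with rmMETRNL and 71.1 ± 1.26 FPKM with vehicle. Hspa4, an HSP110 family gene, had 68.0 ± 0.837 FPKM with rmMETRNL and 68.6 ± 1.70 FPKM with vehicle, which differ by less than their spread. Dnajb2 was low in both groups, at 2.00 ± 0.213 FPKM with rmMETRNL and 2.33 ± 0.260 FPKM with vehicle.

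Set side by side within a library, the cytosolic HSP90 genes differed in direction. The ratio of Hsp90aa1 to Hsp90ab1 in FPKM was 0.503, 0.562 and 0.576 in rmMETRNL libraries, against 0.445, 0.431 and 0.454 in vehicle libraries. The groups did not overlap (exact permutation test on log2 ratios, two-sided, p = 0.1, the smallest that 3 against 3 allows). The same held for the mitochondrial Hspa9 over the cytosolic Hspa8, at 1.19, 1.33 and 1.30 in rmMETRNL libraries and 0.923, 1.05 and 0.966 in vehicle libraries (exact permutation p = 0.1), and for the summed level of Hspa1a and Hspa1b above (exact permutation p = 0.1). These quantities were chosen after their values were seen, among 8 computed, and the exact permutation p-values adjusted over the 8 were 0.2 or higher.

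**Figure D4:**
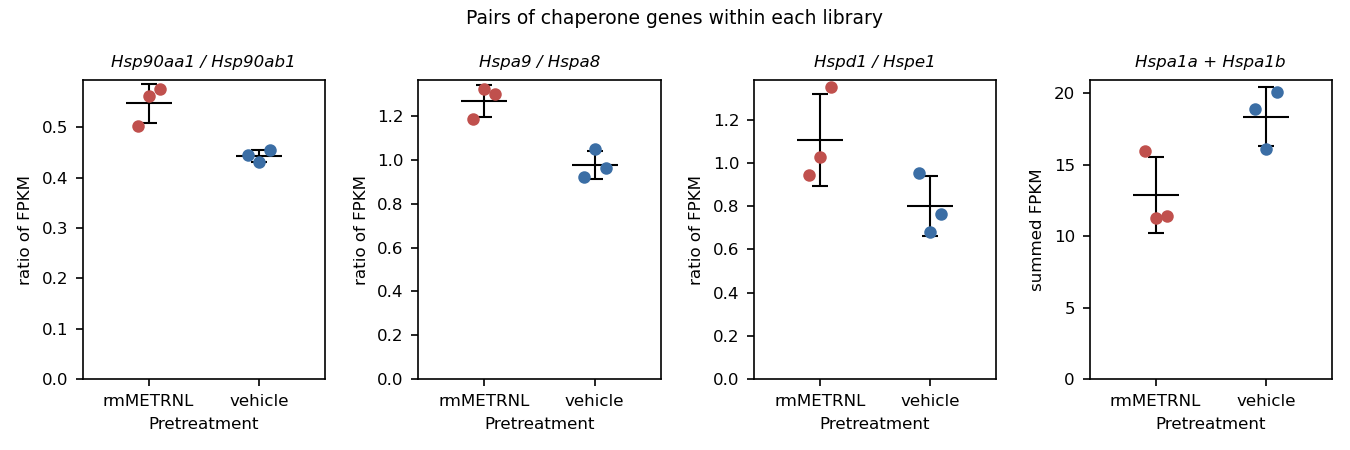
Ratios of FPKM within each library for 3 pairs of genes and the summed FPKM of Hspa1a and Hspa1b, with rmMETRNL (red) left of vehicle (blue), each point a library and the bar and whiskers the mean ± SD of 3. The groups do not overlap for Hsp90aa1 over Hsp90ab1, Hspa9 over Hspa8 and the summed pair, and they overlap for Hspd1 over Hspe1.

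The co-chaperones had a median log2 fold change of 0.06, with 6 of 8 positive. In 1 of the 8, Stip1, the groups did not overlap (12.5%, against 21.5% of all genes tested). Stip1 (ENSMUSG00000024966, chromosome 19, 7020696 to 7040026), also called HOP, bridges HSP70 and HSP90 during the transfer of a client. Its level was 69.2, 68.2 and 67.1 FPKM in rmMETRNL libraries, against 60.2, 62.8 and 58.9 FPKM in vehicle libraries. Every rmMETRNL value lay above the vehicle values, with a log2 fold change of 0.17 (limma SE 0.04 and adjusted p = 0.236). Ahsa1, an activator of the HSP90 ATPase, had 8.08, 7.93 and 7.07 FPKM in rmMETRNL libraries and 7.34, 6.77 and 7.06 FPKM in vehicle libraries. Fkbp4, an immunophilin of steroid receptor complexes, had 13.5, 13.8 and 11.6 FPKM in rmMETRNL libraries and 16.0, 14.8 and 12.8 FPKM in vehicle libraries. Both overlapped between the groups.

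The rest of the class varied as much within groups as between them. Cdc37, which loads kinases onto HSP90, had 13.9 ± 1.32 FPKM with rmMETRNL and 14.9 ± 0.363 FPKM with vehicle. Ptges3 (p23), which stabilises the closed form of HSP90, had 49.2 ± 3.01 FPKM with rmMETRNL and 48.6 ± 3.20 FPKM with vehicle. St13 (HIP), which holds HSP70 on its client, had 21.4 ± 0.965 FPKM with rmMETRNL and 21.1 ± 1.51 FPKM with vehicle. For Chordc1, an HSP90 partner, the levels were 5.72 ± 0.683 FPKM with rmMETRNL and 5.32 ± 0.762 FPKM with vehicle. Stub1 (CHIP), the ubiquitin ligase that marks clients of HSP70 and HSP90, had 19.5, 18.3 and 13.4 FPKM in rmMETRNL libraries and 16.3, 14.2 and 16.0 FPKM in vehicle libraries. In rmMETRNL library 3 it was below every vehicle value and in the other 2 rmMETRNL libraries above them, and its log2 fold change was 0.12 with all libraries, 0.27 without rmMETRNL library 3, 0.02 without rmMETRNL library 1, and 0.06 without rmMETRNL library 2 or without vehicle library 2. Stub1 shares 42.3% of its exon bases with other genes, chiefly Jmjd8 on the opposite strand.

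Most TRiC subunits had lower values with rmMETRNL. Of the 8 genes 7 had a negative log2 fold change, the median was -0.10, and in Cct4, Cct5, Cct7 and Cct8 every rmMETRNL library was below every vehicle library, against 10.6% of all genes tested. None passed limma or voom (lowest adjusted p = 0.244 in limma and 0.106 in voom). Without rmMETRNL library 3 the median was -0.04, and without rmMETRNL library 2 it was -0.15.

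Cct4 (ENSMUSG00000007739, chromosome 11, 22990519 to 23003780) had 36.1, 39.0 and 35.4 FPKM in rmMETRNL libraries, against 41.3, 47.0 and 42.0 FPKM in vehicle libraries (-0.23 in log2 units, with limma SE 0.07 and adjusted p = 0.244). Cct8 had 59.1, 62.2 and 55.5 FPKM in rmMETRNL libraries and 62.4, 70.4 and 68.1 FPKM in vehicle libraries, with rmMETRNL library 2 just below vehicle library 1. Cct7 had 19.9, 20.6 and 18.6 FPKM in rmMETRNL libraries and 22.6, 22.7 and 21.2 FPKM in vehicle libraries. Each of these 3 subunits was lower in every rmMETRNL library than in any vehicle library, by 0.23, 0.18 and 0.16 on the log2 scale for Cct4, Cct8 and Cct7.

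Cct5 had 54.7 ± 4.25 FPKM with rmMETRNL and 59.1 ± 1.73 FPKM with vehicle. Cct2, the most abundant subunit gene, had 70.0, 73.6 and 68.1 FPKM in rmMETRNL libraries and 73.7, 71.9 and 75.6 FPKM in vehicle libraries, which overlapped. Cct6a, Tcp1 and Cct3 had log2 fold changes of -0.09, -0.01 and 0.01, and reads of Cct6a and Tcp1 may mix with those of overlapping genes, mostly on the opposite strand, which cover 15.3% and 16.9% of their exon bases. The FPKM of the highest subunit gene was 3.59 ± 0.0784 times that of the lowest in rmMETRNL libraries and 3.71 ± 0.133 times in vehicle libraries. In FPKM the order of the subunits was headed by Cct2, Cct8 and Cct5 in both groups. Both depend on the gene lengths used for FPKM, 2557 bases for Cct2 against 6370 for Cct3 and 6778 for Cct7. In rmMETRNL library 1 these genes had 2782, 2003 and 2097 reads, so the spread is not a measure of relative transcript or subunit amounts. As a class mean per library, relative to the vehicle mean on the log2(FPKM + 1) scale, the subunits stood at -0.09, -0.03 and -0.19 in rmMETRNL libraries 1, 2 and 3, against -0.03, 0.03 and -0.00 in vehicle libraries 1, 2 and 3. The inducible class stood at -0.05, -0.08 and -0.16 in rmMETRNL libraries and at 0.01, -0.08 and 0.07 in vehicle libraries. Library 3 of the rmMETRNL group was lowest in both classes, and both class means overlapped between the groups.

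**Figure D5:**
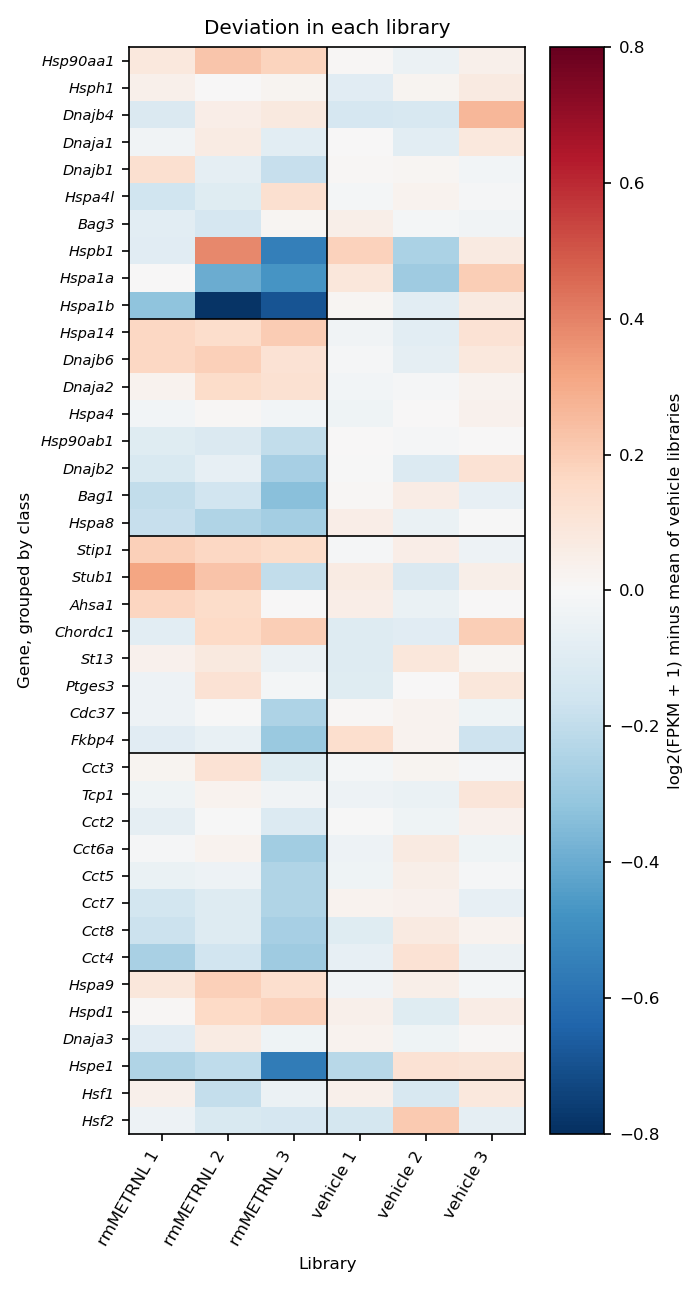
Deviation of each gene in each library from its mean over the 3 vehicle libraries, as log2(FPKM + 1), with genes in rows by class and rmMETRNL libraries left of vehicle libraries. Hspa1b is lower in all 3 rmMETRNL libraries, and rmMETRNL library 3 holds the lowest values of Hspe1, Hspb1 and 7 of the 8 TRiC subunits.

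The mitochondrial chaperones divided. Hspa9 (ENSMUSG00000024359, chromosome 18, 34937414 to 34954357), or mortalin, the HSP70 of the mitochondrial matrix that pulls in imported proteins, had 226, 243 and 233 FPKM in rmMETRNL libraries, against 208, 219 and 209 FPKM in vehicle libraries. All 3 rmMETRNL values were above the vehicle values (0.14 in log2 units, with limma SE 0.04 and adjusted p = 0.272). Dnaja3, its J-domain partner, was at 4.49 ± 0.294 FPKM with rmMETRNL and 4.56 ± 0.126 FPKM with vehicle.

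Hspe1 and Hspd1 encode the lid and the barrel of the mitochondrial chaperonin. The Hspe1 window printed above largely overlaps a window of Hspd1, whose other window holds no heat shock element match. Hspe1 (ENSMUSG00000073676, chromosome 1, 55088132 to 55091307, plus strand) had 34.7, 35.5 and 27.6 FPKM in rmMETRNL libraries and 35.1, 44.7 and 44.3 FPKM in vehicle libraries. Vehicle library 1 was close to the first 2 rmMETRNL libraries, so the groups overlapped (-0.33 in log2 units, with limma SE 0.13 and adjusted p = 0.319). Without rmMETRNL library 3 the difference was -0.22. Hspd1 (ENSMUSG00000025980, chromosome 1, 55077835 to 55088243, minus strand) had 32.7, 36.5 and 37.2 FPKM in rmMETRNL libraries and 33.5, 30.4 and 33.9 FPKM in vehicle libraries, which overlapped as well (0.12 in log2 units, with limma SE 0.07 and adjusted p = 0.476). The ratio of Hspd1 to Hspe1 was 0.944, 1.03 and 1.35 in rmMETRNL libraries and 0.954, 0.681 and 0.765 in vehicle libraries (exact permutation test, two-sided, p = 0.2). The highest ratio stood in rmMETRNL library 3, the library with the length trend, and Hspe1 is the shorter gene, at 1474 bases against 2642. With each library's length trend removed the log2 fold changes were -0.30 for Hspe1 and 0.14 for Hspd1. Of the 31-base words of Hspd1 55.8% occur in other genes, mainly its pseudogenes, and of those of Hspe1 14.1% do.

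The heat shock factors were low in both groups. Hsf1, the master regulator of the inducible genes, had 2.28, 1.80 and 2.09 FPKM in rmMETRNL libraries and 2.29, 1.93 and 2.40 FPKM in vehicle libraries. Hsf2, a related factor, had 3.07, 2.85 and 2.81 FPKM in rmMETRNL libraries and 2.79, 3.84 and 2.98 FPKM in vehicle libraries. Values of both genes overlapped between the groups, with log2 fold changes of -0.07 (SE 0.10) and -0.10 (SE 0.10). The level of the mRNA does not give the activity of HSF1, which is set on the protein.

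Of the 5 members with a 3-unit heat shock element in a window, Dnajb6, Hspd1, Chordc1 and Hsph1 had log2 fold changes of 0.16, 0.12, 0.09 and 0.02, and Hspe1 of -0.33. Hspa1a and Hspa1b, whose windows differ at 4 of 300 bases, had -0.29 and -0.60. Their levels cannot be read apart with certainty, as stated above.

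Among other genes of the chaperone system the differences were again small. A list of 59 further chaperone, co-chaperone and HSF network genes held 45 above the level tested. Limma and voom each called 0 of the 45, and limma counted 3 at an unadjusted p under 0.05 (6.67%, against 14.7% of all genes tested), 1 higher and 2 lower with rmMETRNL. The median log2 fold change was -0.02, with 16 of 45 positive. Ubb, a polyubiquitin gene known as an HSF1 target, had 427, 416 and 399 FPKM in rmMETRNL libraries and 447, 577 and 483 FPKM in vehicle libraries. Every rmMETRNL value was below every vehicle value, and the vehicle values were the more spread. Unc45a, a myosin chaperone that works with HSP90, had 7.19 ± 0.384 FPKM with rmMETRNL and 8.36 ± 0.413 FPKM with vehicle. Vbp1, a prefoldin subunit gene that passes clients to TRiC, had 12.1 ± 0.913 FPKM with rmMETRNL and 10.7 ± 0.295 FPKM with vehicle. Hspa13, an HSP70 family gene of microsomes, had 7.23 ± 0.113 FPKM with rmMETRNL and 6.55 ± 0.283 FPKM with vehicle. Bag2, an inhibitor of CHIP, had 3.24 ± 0.0820 FPKM with rmMETRNL and 2.77 ± 0.254 FPKM with vehicle, and Dnajc7, a J-domain protein that binds both HSP70 and HSP90, had 8.48 ± 0.199 FPKM with rmMETRNL and 7.62 ± 0.489 FPKM with vehicle.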

How the data were processed

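RNA-seq values of 6 macrophage samples were used, 3 rmMETRNL and 3 vehicle, grouped by their titles. The values, deposited by the authors as FPKM in 1 table with gene lengths, belong to GRCm38 (mm10), per the submitters' processing notes. For aligner, counter, annotation and strand setting, the sources used here give nothing. Multiplying FPKM by length gave steps of equal size in each library, and 100% of values were whole steps (tolerance 0.05 reads), which returned the reads per gene. The main test was limma 3.58.1 (R 4.3.3), two-sided, with a mean-variance trend, run on log2(FPKM + 1) of the 9867 genes averaging 1 FPKM or more. P-values were adjusted by Benjamini-Hochberg across those genes, with a threshold of 0.05. That scale understates the change of low genes. Limma voom, with TMM scaling, ran on the recovered reads. Both were tested on simulated reads with known changes, with the same added spread for every gene and no length trend. That setting differs from these data, so the test does not show how the fits perform on them.

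The members, classes, lists and alternatives were chosen with earlier results of these data known. All 40 members are named. Per-library values are given for Hspa1a, Hspa1b, Hsf1 and Hsf2, and in the other classes for the most abundant member and the 3 with the smallest p. Hsp90aa1 and Stub1 were added after their values were seen. Of the further genes the 6 with the smallest p are named. Shared 31-base words and exon overlap were computed from GENCODE M21, whose start and end match the table for 38 of the 40 members. In 16 members over 10% of the words or of the exon bases were shared. Dnaja1 and Ptges3, at 31.2% and 23.5% of words, are among them. No 2 libraries held the same values. 1 marker gene is not reported here. Alternatives were other pseudocounts, filters, scalings, variance models, a replicate block, removal of the length trend and leaving out each library.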

Additional observations from a re-analysis of the deposited data

How the results depend on the processing

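Over all genes, limma called 0 genes and 0 members, and so did the fit with the replicate block. The deviations of same-numbered libraries correlated at -0.05 to 0.007, so no pairing by replicate number was seen. With 3 libraries per group this cannot show whether the samples were paired, and the labels do not say. Without the filter 5 genes were called and on TPM 2, and voom called 91 genes and 2 members, or 61 genes and 2 members when scaled by summed reads. Voom on either scaling put Hspa1b and Hspa8 past the threshold. With a minimum of 5 FPKM the constitutive median was -0.013 and the mitochondrial median 0.12, as low members left the lists, and without members that share sequence or exons the mitochondrial median was -0.020. On TPM, Dnaja1, Hspa4 and Tcp1 turned positive, at 0.0035, 0.0074 and 0.0072. Dnajb4 turned negative, at -0.013 in voom, -0.023 in voom by summed reads and -0.016 with the length trend removed, where St13 stood at -0.0050. Leaving out each library in turn changed the sign of 14 genes, none of them called, whose log2 fold changes ran over these ranges: Cct3 -0.035 to 0.068, Cct6a -0.14 to 0.0083, Dnaja1 -0.059 to 0.026, Dnaja3 -0.061 to 0.014, Dnajb1 -0.13 to 0.029, Dnajb4 -0.062 to 0.14, Hsf2 -0.17 to 0.0083, Hspa4 -0.031 to 0.0039, Hspa4l -0.13 to 0.014, Hspb1 -0.32 to 0.15, Hsph1 -0.024 to 0.056, Ptges3 -0.030 to 0.065, St13 -0.031 to 0.067, Tcp1 -0.040 to 0.035. Of the genes given by library, and Cct5, these moved by over 1.5 times on leaving out a library without changing sign: Hspa1a -0.43 to -0.19, Fkbp4 -0.23 to -0.076, Cct2 -0.093 to -0.038, Cct5 -0.15 to -0.048, Hspe1 -0.45 to -0.22, Hspd1 0.070 to 0.17, Hsf1 -0.13 to -0.0059, Stub1 0.017 to 0.27. Class medians ran over -0.059 to -0.0056 (inducible), -0.085 to -0.045 (constitutive), 0.0057 to 0.087 (co-chaperone), -0.15 to -0.043 (TRiC), 0.016 to 0.090 (mitochondrial), -0.12 to -0.046 (factors), and members at an unadjusted p under 0.05 numbered 8 to 13. The same count over all genes tested ran from 1025 to 1400 in these fits. The cause of these changes was not tested, apart from the members that left a list. Low read counts limit Hspb1 (18 to 51 reads).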
